A study of Mus musculus with 6 samples.

Results

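The 7 genes described here encode the enzymes that write and remove DNA methylation, *Dnmt1*, *Dnmt3a*, *Dnmt3b*, *Tet1*, *Tet2* and *Tet3*, and the cofactor *Uhrf1*. They were chosen by name, matched from symbol to mouse Ensembl gene ID, and are 7 of the 38293 genes and 218 of the 355320 exon bins that were counted. RNA was sequenced from Lin-cKit+ fetal liver (FL) cells, the fraction that lacks lineage markers, carries the Kit receptor and contains hematopoietic stem and progenitor cells. The cells came from C57BL/6 embryos at day 14.5, 3 wt and 3 VavCre+ hnRNP L fl/fl (hnRNP L deficient, here KO), with 1 embryo per library and embryo numbers in the labels. VavCre is a Cre recombinase driven by the Vav promoter, which is active in hematopoietic cells, and it deletes the floxed gene of hnRNP L, an RNA binding protein that acts in splicing. The sort is given in the methods, while the labels name fetal liver cells as the source and whole embryo as the tissue. The labels give the controls as wild type, whereas a legend of the study writes them as L fl/fl, and whether they carried Cre is not given in the sources used here. *Kit* itself had between 325 and 656 CPM (reads scaled to a common library size) in the 6 libraries.

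In mammals, methyl groups are placed on the cytosine of CpG, a C followed by a G. *Dnmt3a* and *Dnmt3b* encode the de novo methyltransferases, which methylate sites that carried no mark. *Dnmt1* encodes the maintenance methyltransferase, which copies the pattern onto the new strand after replication, and *Uhrf1* the protein that recognizes hemimethylated CpG and recruits it. The TET dioxygenases oxidize 5-methylcytosine, the first step of active demethylation, and need 2-oxoglutarate and iron. *DNMT3A* and *TET2* are among the genes most often mutated in human myeloid malignancies, and loss of either gene in mice expands hematopoietic stem cells.

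The libraries held 55952160 to 76157226 reads on genes, where 3 reads correspond to between 0.0402 and 0.0540 CPM. *Hnrnpl* had 528 to 552 CPM in wt libraries and 242 to 288 CPM in KO libraries. Wt replicate 2 stood apart. Summed over 8 granulocyte and monocyte genes it had 7934 CPM, against 581 and 1479 CPM in wt replicates 1 and 3 and 240 to 775 CPM in the KO libraries. Its reads were also shifted towards the 3′ end, with a median over 6284 units of 69.1% of reads beyond the midpoint of the exon bins, against 63.8% to 64.3% in the other 4 libraries with bin counts. Values without this library are given beside enzyme, pathway and germline genes and exon bins that passed a threshold or moved by over 1.5 times. They are not given for the S phase genes and cell type markers.

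To ask whether the enzymes' mRNAs depend on hnRNP L, all 6 libraries were fitted and the genotypes compared with edgeR's quasi-likelihood test, adjusted over all 14396 genes tested. *Dnmt3a*, *Tet1* and *Tet2* mRNA fell in KO cells, to 62.2%, 42.1% and 62.9% of the mean wt level. None of the 7 rose, and *Dnmt1*, *Uhrf1*, *Dnmt3b* and *Tet3* did not pass the test. The 3 of 7 that fell compare to 9.85% of all genes tested that were called lower, and 9.32% were called higher. The falls were in a de novo methyltransferase and in both of the less abundant dioxygenases. Every embryo is a separate animal, and in bulk RNA fewer cells of a type and less RNA per cell cannot be told apart.

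**Figure D1:**
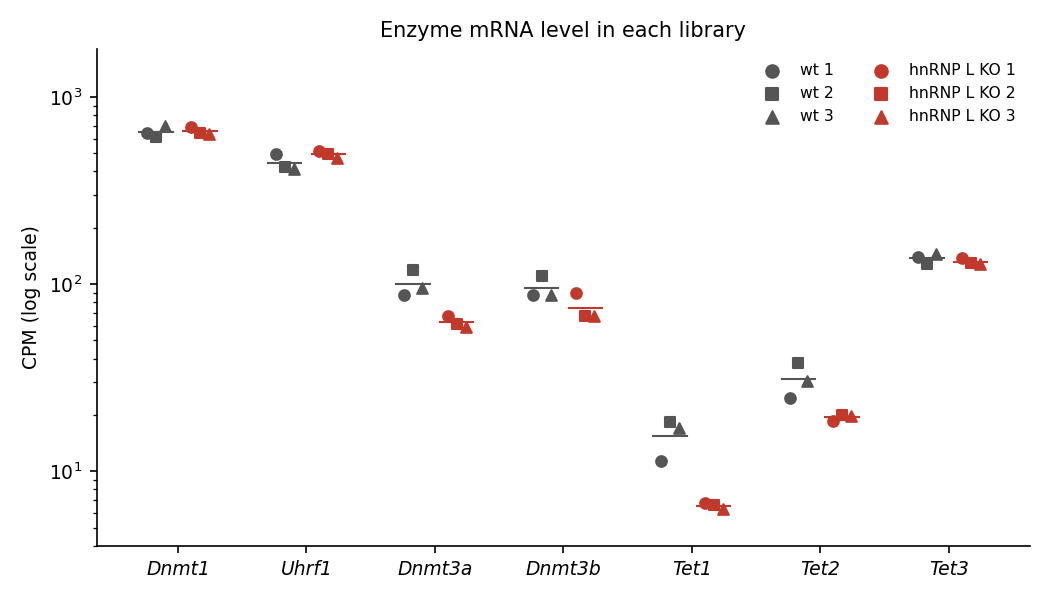
Level of the 7 mRNAs in each library, in CPM on a log axis, for 3 wt (grey) and 3 KO (red) libraries, with lines at the group means. For *Dnmt3a*, *Tet1* and *Tet2* every red point lies below every grey point, and for the other 4 genes the groups overlap.

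Among the de novo methyltransferases, *Dnmt3a* (ENSMUSG00000020661, GRCm38 chr12:3806007-3914443, plus strand) was at 88.0, 119 and 95.1 CPM in the wt libraries, in the order of replicates 1 to 3 used throughout, and at 67.3, 61.3 and 59.2 CPM in the KO libraries. All 3 KO libraries lay below all wt libraries, which 22.7% of the genes tested also did. The log2 fold change was -0.68 (standard error, SE, 0.12, edgeR adjusted p = 0.017), and without wt replicate 2 it was -0.55 (adjusted p = 0.0065).

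*Dnmt3b* (ENSMUSG00000027478, chr2:153649450-153687730, plus strand) had 87.6, 110 and 87.3 CPM in wt and 89.2, 67.9 and 67.8 CPM in KO libraries. Replicates 2 and 3 of the KO group were below every wt library, but replicate 1 was above 2 of them, so the groups overlapped. The log2 fold change of -0.34 (SE 0.14) had an unadjusted p of 0.047 and an edgeR adjusted p of 0.13. Without wt replicate 2 it was -0.22 (adjusted p = 0.23), while limma-voom with sample weights placed *Dnmt3b* just past the threshold, with an adjusted p of 0.049.

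The maintenance genes were the most abundant of the 7. *Dnmt1* (ENSMUSG00000004099, chr9:20907209-20959888, minus strand) had 645, 614 and 702 CPM in wt and 691, 639 and 635 CPM in KO libraries. The KO range lies within the wt range, and the log2 fold change was 0.00 (SE 0.085, edgeR adjusted p = 0.98), and -0.04 without wt replicate 2. *Uhrf1* (ENSMUSG00000001228, chr17:56303321-56323486, plus strand) had 497, 420 and 415 CPM in wt and 518, 497 and 474 CPM in KO libraries. The KO libraries were above wt replicates 2 and 3 but overlapped with wt replicate 1, and the log2 fold change was 0.16 (SE 0.096, edgeR adjusted p = 0.26). Without wt replicate 1 it was 0.25, with an adjusted p of 0.036. Both genes are transcribed in cycling cells. Of 12 S phase genes, *Mcm5*, *Rrm2* and *Ung* rose, none fell and 9 did not pass the test. Among all genes tested, 9.32% were called higher and 9.85% lower. The 12 S phase genes summed to between 4248 (wt replicate 2) and 4707 CPM in wt and between 5002 and 5130 CPM in KO libraries. Their part in the *Dnmt1* and *Uhrf1* levels was not tested.

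Of the dioxygenases, *Tet1* (ENSMUSG00000047146, chr10:62804570-62908996, minus strand) showed the largest fall of the 7 genes. It had 11.3, 18.3 and 16.9 CPM in wt and 6.77, 6.58 and 6.24 CPM in KO libraries. The KO libraries lay close together below all wt libraries, with a log2 fold change of -1.25 (SE 0.20, edgeR adjusted p = 0.015), and -1.11 without wt replicate 2 (adjusted p = 0.0090). *Tet2* (ENSMUSG00000040943, chr3:133463679-133545139, minus strand) had 24.6, 38.1 and 30.2 CPM in wt and 18.6, 20.1 and 19.7 CPM in KO libraries. Again the groups did not overlap. The log2 fold change was -0.67 (SE 0.16, edgeR adjusted p = 0.032), and -0.49 without wt replicate 2 (adjusted p = 0.021).

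*Tet3* (ENSMUSG00000034832, chr6:83362373-83459084, minus strand) had 140, 129 and 144 CPM in wt and 137, 130 and 128 CPM in KO libraries. The groups overlapped, and the log2 fold change was -0.06 (SE 0.073, edgeR adjusted p = 0.58), and -0.11 without wt replicate 2 (adjusted p = 0.23).

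**Figure D2:**
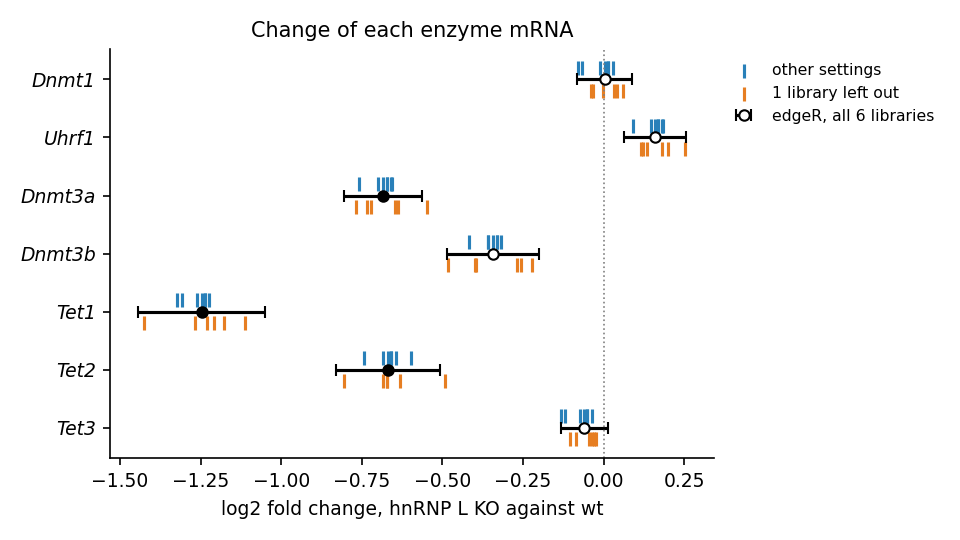
Log2 fold change of each mRNA in KO against wt libraries, with bars of 1 SE from edgeR and filled circles for an adjusted p under 0.05. Ticks above (blue) are 7 other settings of the test, ticks below (orange) leave out 1 of the 6 libraries, and for *Dnmt3a*, *Tet1* and *Tet2* all ticks stay below 0.

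The calls for *Dnmt3a*, *Tet1* and *Tet2* were held by all 7 other settings of the test but not by every set of libraries. They were kept without wt replicate 1 or 2, and were lost without wt replicate 3 (adjusted p between 0.055 and 0.085) or any 1 KO library (between 0.073 and 0.13), while the log2 fold changes stayed between -1.43 and -0.49. Over all genes these 4 fits called at most 17, against 2759 with all libraries. Some cell type markers fell as well. Of 60 marker entries tested, 11 fell, 3 rose and 46 did not pass the test. They include the 12 S phase genes, and *Gata2* is in more than 1 list. Over all genes tested, 9.85% were called lower and 9.32% higher. Of 8 stem and progenitor genes, *Kit*, *Cd34*, *Flt3* and *Hlf* fell and none rose, and the 8 summed to between 599 and 896 CPM in wt and between 419 and 460 CPM in KO libraries. *Csf1r* was the one of the 8 granulocyte and monocyte genes called lower. The median log2 fold change of the 8 was -2.56, and their sums spread widely in wt, with 581, 7934 and 1479 CPM. They overlapped with the KO libraries, which had 240 to 775 CPM, and the highest sum is that of wt replicate 2. Of 6 macrophage genes, *C1qa* and *C1qc* fell, and the median log2 fold change was -1.95. The 6 summed to between 7.71 and 27.0 CPM in wt and between 1.29 and 4.74 CPM in KO libraries. Of 8 erythroid genes 1 fell and none rose, with a median log2 fold change of 0.09, and their sums overlapped, with 2090 to 2548 CPM in wt and 2160 to 2631 CPM in KO libraries. None of the 5 megakaryocyte or 4 mast cell genes passed the test. *Il7r* and *Rag1* fell among 3 lymphoid genes tested, with the 6 listed summing to 1.10 to 7.54 CPM in wt and 0.0932 to 0.536 CPM in KO libraries. Of 6 hepatocyte genes, *Ttr* fell, and their sum was between 109 and 230 CPM in wt and between 24.2 and 72.4 CPM in KO libraries. *Cd3e* had 0 reads in 4 libraries and *Ebf1* in the 3 KO libraries. The part of these cells in the levels of the 3 genes was not tested.

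Levels of different genes were compared per kilobase of the longest coding transcript (CPM per kb). In wt cells *Uhrf1* had 124 ± 12.8 and *Dnmt1* 111 ± 7.65 CPM per kb (SD, n = 3). *Dnmt3b* followed with 22.0 ± 3.07, *Tet3* with 12.6 ± 0.728, *Dnmt3a* with 10.4 ± 1.66, *Tet2* with 3.37 ± 0.738 and *Tet1* with 1.08 ± 0.257 CPM per kb. *Uhrf1* and *Dnmt1* overlapped between wt libraries, as did *Tet3* and *Dnmt3a*, whereas the other neighbours in this order were apart. In KO libraries the order of the means was the same and no neighbours overlapped. The length used for *Dnmt1*, 5870 bases, includes a first exon of 778 bases that had 25 to 123 reads per library. Over all annotated exons *Uhrf1* had 104.2 and *Dnmt1* 103.7 CPM per kb in wt. The order of *Uhrf1* and *Dnmt1* is therefore not settled by these lengths. With the length of all annotated exons, which is much longer for *Dnmt3a*, its mean was 6.04 CPM per kb in wt. *Dnmt3a* lay between *Tet3* and *Tet2* with this length too, which had 12.4 and 3.37 CPM per kb over all exons in wt. Of the 9685 bases of its longest coding transcript, 6657 at the 3′ end held 29.9 to 47.9 CPM on exon bins in wt. The 2139 bases of exons upstream that its forms share held 60.0 to 75.3 CPM. Its rank against *Dnmt3b* and *Tet3* is therefore not settled by these lengths.

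Within each library the balance of the enzymes shifted. The 3 *Tet* mRNAs together amounted to 16.3, 17.2 and 17.7 CPM per kb in wt and 15.1, 14.5 and 14.3 CPM per kb in KO libraries. *Tet3* made up 78.7%, 68.5% and 74.7% of this sum in wt and 83.5%, 81.8% and 82.0% in KO libraries. The share of *Tet1* was 4.84%, 7.39% and 6.67% in wt and 3.13%, 3.15% and 3.03% in KO libraries. Both shares were separate between the groups. The *Dnmt3a* to *Dnmt3b* ratio per kb was 0.448, 0.479 and 0.486 in wt and 0.337, 0.403 and 0.390 in KO libraries, so it was lower in every KO library although both mRNAs were lower on average. The *Dnmt1* to *Uhrf1* ratio was 0.793, 0.892 and 1.03 in wt and 0.815, 0.786 and 0.819 in KO libraries and overlapped. These ratios are descriptions without a test, and their size depends on the transcript lengths used.

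*Dnmt3a* is transcribed as a long form from an upstream promoter and as a short form, known as Dnmt3a2, from an internal promoter. Their starts are shown because the exon reads described next separate the 2 forms. The sequences are from RefSeq (GRCm38.p6), plus strand, the 250 bases before the first transcribed base of each form, with CpG in capitals. The long form's window is chr12:3806730-3806979, for the upstream of 2 RefSeq starts of this form, and the short form's is chr12:3891494-3891743.
Long form: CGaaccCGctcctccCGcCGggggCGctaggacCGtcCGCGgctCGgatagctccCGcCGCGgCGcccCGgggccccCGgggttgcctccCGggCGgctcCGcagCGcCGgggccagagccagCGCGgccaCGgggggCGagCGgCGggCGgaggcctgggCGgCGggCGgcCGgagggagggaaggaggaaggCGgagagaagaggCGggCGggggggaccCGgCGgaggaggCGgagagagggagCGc
Short form: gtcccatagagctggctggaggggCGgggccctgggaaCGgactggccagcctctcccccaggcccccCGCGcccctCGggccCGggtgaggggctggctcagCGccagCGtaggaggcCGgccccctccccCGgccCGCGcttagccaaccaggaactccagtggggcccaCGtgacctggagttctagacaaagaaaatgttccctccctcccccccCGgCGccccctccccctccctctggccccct
The long form's window holds 38 CpG, as many as or more than which are found in 1.88% of 32851 promoter windows of the same length, and the short form's window holds 15, reached by 27.3% of them. The window of the other RefSeq start of the long form, at chr12:3807160, overlaps the first and holds 40 CpG (1.31%). First exons annotated for further transcripts start upstream of both, at chr12:3806007 and chr12:3806498.

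Exon bins are the pieces into which the exons of a gene are divided at every annotated exon boundary, and usage is the level of a bin relative to the rest of its gene. KO replicate 1 had no bin counts here, which left 3 wt and 2 KO libraries. Of the 218 bins of the 7 genes, 180 had a mean of at least 10 reads and were tested with edgeR's diffSpliceDGE. None was called at an adjusted p under 0.05 with this tool, with limma's diffSplice or with DEXSeq's model fitted with DESeq2, against 0.0288% of all bins tested with diffSpliceDGE. At an unadjusted p under 0.05 diffSpliceDGE found 6 bins, against 1.03% of all bins. limma found 8, against 2.67% of all bins, and the DEXSeq model 15, against 4.3%. All 6 found by diffSpliceDGE were in *Dnmt3a*. Without wt replicate 2 it found 8, against 2.54% of all bins, of which 5 were in *Dnmt3a* and 1 each in *Dnmt1*, *Tet1* and *Uhrf1*. Neighbouring bins share reads, so they are not independent.

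Of the 6 *Dnmt3a* bins, 4 lay in coding exons that only the long form contains, and their usage was higher in KO cells. Bin 18 (chr12:3873282-3873381) had 33, 45 and 86 reads in wt replicates 1 to 3 and 93 and 84 reads in KO replicates 2 and 3, a log2 usage change of 1.25 (unadjusted p = 0.010, edgeR adjusted p = 1.00). The adjacent bin 19 had 21, 41 and 69 reads in wt and 61 and 81 in KO libraries, with a log2 usage change of 1.24 (unadjusted p = 0.017). Bins 17 and 15 had log2 usage changes of 1.11 and 1.08 (unadjusted p = 0.038 and 0.042). The smallest adjusted p of any of the 180 bins in any tool with all 5 libraries was 0.11, for bin 18 with the DEXSeq model. The other 2 bins, 62 (chr12:3911276-3913491) and 63 (chr12:3913492-3914443), form the 3′ end of the gene in noncoding exon sequence. Their log2 usage changes were -0.51 and -0.89 (unadjusted p = 0.045 and 0.020). Without wt replicate 2, the library with 3′-shifted reads, the change of bin 62 was -0.18 and that of bin 63 -0.63, and bins 15, 17, 18 and 19 had changes of 0.75, 0.88, 1.07 and 1.15.

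**Figure D3:**
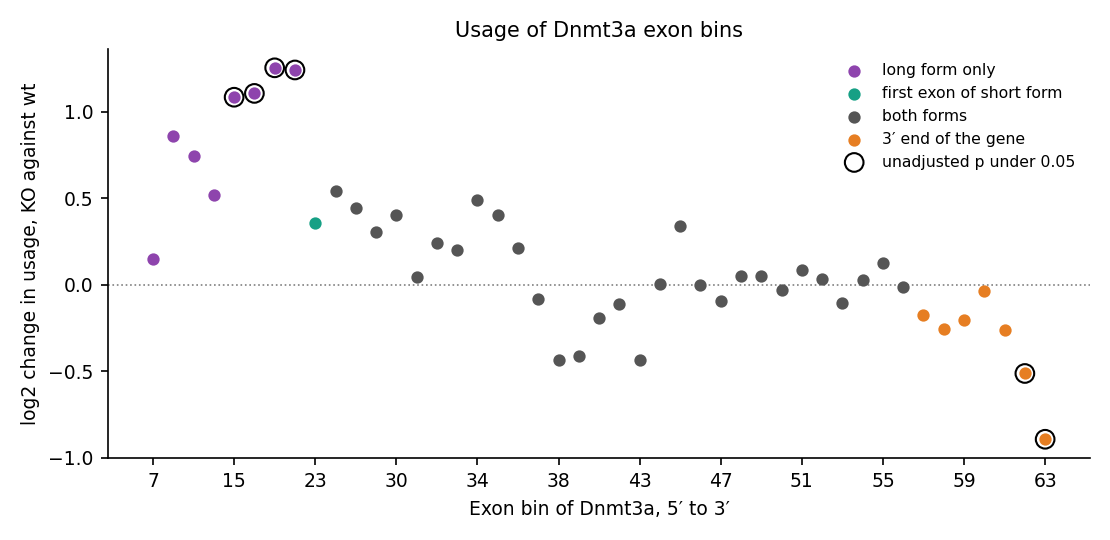
Log2 change in usage of the 45 tested *Dnmt3a* exon bins in KO (n = 2) against wt (n = 3) libraries, in order from 5′ to 3′ by bin number, coloured by the transcripts that contain them. The 8 bins of the long form alone lie above 0 and the 7 bins at the 3′ end below 0, and circles mark the 6 bins with an unadjusted p under 0.05.

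Taken over all 8 bins of the long form alone, 395, 320 and 481 reads were counted in wt replicates 1 to 3 and 544 and 488 in KO replicates 2 and 3. Scaled to library size these were 3.86, 3.06 and 3.50 CPM in wt and 4.45 and 3.44 CPM in KO libraries, so the groups overlapped. On the 29 bins of both forms there were 60.0, 75.3 and 67.0 CPM in wt and 44.7 and 42.7 CPM in KO libraries. The shared bins were thus lower in both KO libraries than in every wt library. Per 100 reads on shared bins, 6.44, 4.07 and 5.22 were on long-form bins in wt and 9.95 and 8.05 in KO libraries, a ratio of the means of 1.72, and 1.54 without wt replicate 2. The first exon of the short form (bin 23, chr12:3891744-3891860) had 33, 50 and 56 reads in wt and 36 and 48 in KO libraries, too few to separate the groups. In the 4 long-form bins of at least 80 bases the median density was 3.13 to 3.59 CPM per kb in wt and 3.24 to 4.99 in KO libraries, against 22.0 to 28.8 in wt and 17.2 to 17.4 in KO libraries in the 14 shared bins of that length. Transcripts of the short form and a loss of reads towards the 5′ end of long transcripts cannot be told apart in these counts.

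In *Tet1* and *Tet2* the mean of every tested bin was lower in KO libraries, though *Tet2* bin 10 was at 97.2% of wt. Of the 26 bins of *Tet1*, 14 had enough reads to be tested. The mean of *Tet1* was lower in KO libraries in 14 of 14 tested bins, against 50.2% of all bins tested, and the median bin was at 48.3% of wt. In 10 of the 14 both KO libraries were below all 3 wt libraries, against 17.5% of all bins. Bins of a gene share its level, so these counts follow the fall of the gene. *Tet1* bin 5, a coding bin of 65 bases, had the largest fall in usage of all 180 bins, from 17, 10 and 25 reads in wt to 0 and 5 reads in KO replicates 2 and 3, where a count of 0 allows up to 3 reads. Its log2 usage change of -1.62 had an unadjusted p of 0.074, and was -2.02 without wt replicate 2 (unadjusted p = 0.019) and -0.68 without KO replicate 2, the library with 0 reads. *Tet1* bin 10 had the largest rise in that gene, 0.80 (unadjusted p = 0.32), and 0.38 without KO replicate 3. For *Tet2*, 11 of 11 bins had a lower mean, 6 of them with both KO libraries below all wt libraries, and the median bin was at 68.0% of wt. Its extremes in usage were bin 4 with -0.39 and bin 10 with 0.62 (unadjusted p = 0.50 and 0.33). Bin 10 was at 0.087 without wt replicate 2, and bin 4 at -0.21 without wt replicate 3, -0.81 without KO replicate 2 and -0.056 without KO replicate 3, so each rests on single libraries. In *Tet3*, whose level did not pass the test, 1 of 10 bins had a lower mean in KO libraries and the median bin was at 115% of wt. Here bin 1, which holds most of its reads, and bin 11 were the extremes in usage with -0.14 and 0.52 (unadjusted p = 0.56 and 0.31). Without wt replicate 2 these were -0.068 and 0.27. Bin 1 was at -0.44 with limma and -0.45 with the DEXSeq model, and bin 11 at 0.85 without wt replicate 1 and 0.34 without KO replicate 2.

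*Dnmt3b* had a lower mean in 31 of 31 tested bins, 27 of them with both KO libraries below all 3 wt libraries, against 50.2% and 17.5% of all bins tested. These bins leave out KO replicate 1, the library with the highest *Dnmt3b* level of its group. Bins of a gene share its level, so these counts follow the gene's level in the libraries with bin counts. With all libraries the gene did not pass the test. The gene is known for optional exons, of which the pair before the last exon belongs to the catalytic domain, and transcripts that skip this pair encode proteins without methyltransferase activity. The exons are shown because reads on them report which forms these cells make. They were read from the GENCODE transcripts (GRCm38, plus strand), with CACA or ACAC, letters of the CA-rich elements that hnRNP L is known to bind, to be set in capitals where found on this strand. They lie at chr2:153670849-153670908 (bin 18), chr2:153683608-153683677 (bin 30) and chr2:153684359-153684477 (bin 31).
Bin 18: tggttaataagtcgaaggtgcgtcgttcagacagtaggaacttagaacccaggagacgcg
Bin 30: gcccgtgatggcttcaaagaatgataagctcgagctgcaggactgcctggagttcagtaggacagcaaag
Bin 31: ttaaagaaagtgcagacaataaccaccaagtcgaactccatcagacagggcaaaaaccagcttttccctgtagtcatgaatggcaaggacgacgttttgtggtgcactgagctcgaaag
Neither motif is in these exons, while 31.1%, 35.4% and 52.4% of windows of 60, 70 and 119 bases in the longest coding transcripts of 21877 genes hold 1 of them. Bins 30 and 31 together have 189 bases.

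Few *Dnmt3b* reads covered the optional exons in either genotype. Bin 30 had 27, 24 and 18 reads in wt replicates 1 to 3 and 8 and 9 reads in KO replicates 2 and 3, against 246 to 315 reads on bin 29, the exon before it. This is 9.47%, 7.62% and 5.88% of the neighbour in wt and 3.25% and 3.33% in KO libraries, without correction for length. The groups did not overlap, but the log2 usage change of -1.16 had an unadjusted p of 0.13 (edgeR adjusted p = 1.00). Bin 31 had 56, 42 and 36 reads in wt and 27 and 39 in KO libraries, or 11.8% to 19.6% of bin 29 in wt and 10.98% and 14.44% in KO libraries, which overlapped. Bin 18 had 39, 50 and 29 reads in wt and 21 and 49 in KO libraries. Against the mean of both neighbouring bins this was 10.5% to 18.9% in wt and 9.72% to 21.2% in KO libraries, also overlapping. The largest rise in usage of a *Dnmt3b* bin was 0.24, in bin 15 (unadjusted p = 0.43).

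**Figure D4:**
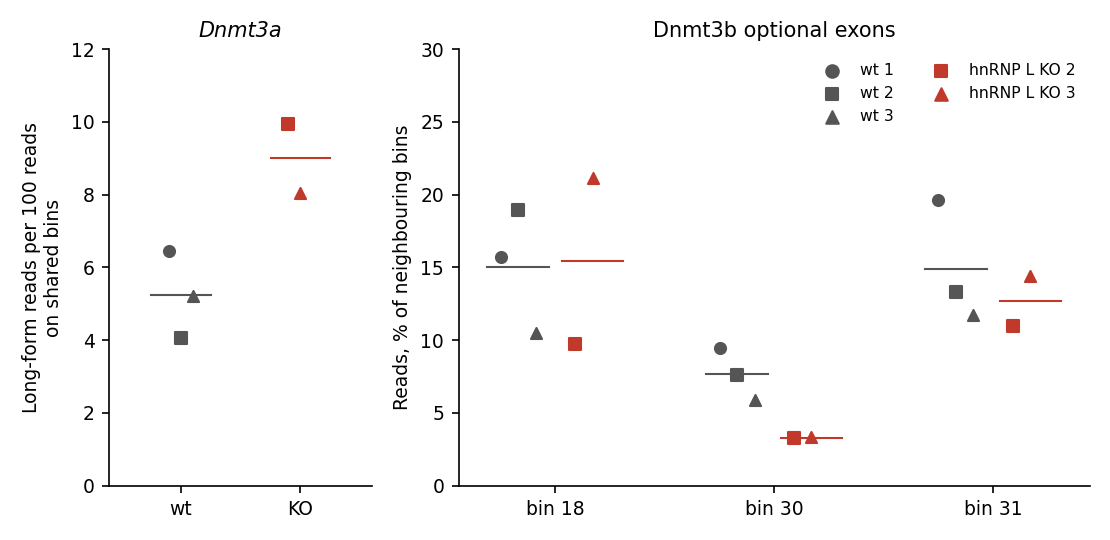
Left, reads on the 8 *Dnmt3a* bins of the long form alone per 100 reads on the 29 bins of both forms. Right, reads on 3 optional *Dnmt3b* exon bins as a percentage of the neighbouring bins. Points are libraries, 3 wt (grey) and 2 KO (red), with lines at the means, and the groups are apart for *Dnmt3a* and for *Dnmt3b* bin 30.

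In *Dnmt1*, bin 40, the first exon of an alternative transcript, showed the largest fall in usage. It had 50, 41 and 123 reads in wt and 56 and 25 in KO libraries, a log2 change of -0.85 (unadjusted p = 0.11). It was -1.06 without wt replicate 2 (unadjusted p = 0.011), -0.45 without wt replicate 3, -1.69 without KO replicate 2 and -0.31 without KO replicate 3. Bin 41, the first exon of another transcript, had 589 to 1163 reads per library, and the first exon of a further transcript, bin 42, had 0 reads in each of the 5 libraries, which allows up to 3 per library. The largest rise was 0.10, in bin 18 (unadjusted p = 0.67), with 0.049 without wt replicate 2 and 0.15 without wt replicate 3. In *Uhrf1* the extremes were bin 1 with -0.62 and bin 4 with 0.29 (unadjusted p = 0.16 and 0.55). Bin 1 had 165 reads in wt replicate 1 and 56 to 89 in the other libraries, and its change was -0.038 without wt replicate 1 and -0.87 without wt replicate 2 (unadjusted p = 0.0080). Bin 4 was at 0.096 without wt replicate 1, 0.49 without wt replicate 3, 0.51 without KO replicate 2 and 0.035 without KO replicate 3.

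Most other genes of the pathway did not pass the test. Of 55 genes in 6 roles, 49 were tested, of which 3 fell, 2 rose and 44 did not pass the test, with a median log2 fold change of 0.10 against -0.03 over all genes tested. Both shares are below the 9.85% and 9.32% of all genes called lower and higher.

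Among 8 tested partners of the TET enzymes, *Cxxc5* and *Idh2* fell, against 9.85% of all genes tested. *Cxxc5* encodes a CXXC zinc finger protein that binds unmethylated CpG. It had 8.37, 21.7 and 13.7 CPM in wt and 5.36, 6.07 and 4.68 CPM in KO libraries, a log2 fold change of -1.44 (SE 0.33, edgeR adjusted p = 0.030). *Idh2* encodes the mitochondrial isocitrate dehydrogenase that makes 2-oxoglutarate. It had 148, 248 and 182 CPM in wt and 114, 116 and 105 CPM in KO libraries, a log2 fold change of -0.79 (SE 0.18, edgeR adjusted p = 0.028). For both, every KO library was below every wt library, which was so for 22.7% of all genes tested. Without wt replicate 2 the log2 fold changes were -1.04 for *Cxxc5* and -0.56 for *Idh2* (edgeR adjusted p = 0.019 and 0.0098).

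Of 4 *Gadd45* and deaminase genes tested, 1 rose and 1 fell, against 9.32% and 9.85% of all genes tested. *Gadd45g*, a stress gene, rose from 5.28, 5.87 and 6.41 CPM in wt to 9.12, 9.18 and 9.07 CPM in KO libraries (an increase of 0.64 in log2, edgeR adjusted p = 0.028). *Apobec1*, which encodes a cytidine deaminase that edits RNA, fell from 4.25, 7.47 and 5.23 CPM to 2.90, 2.68 and 2.92 CPM (log2 fold change -0.99, edgeR adjusted p = 0.034). Against 9.32% of all genes tested, 1 of 11 genes tested in the methyl donor cycle rose. This was *Mtrr*, which encodes the reductase that keeps methionine synthase active, with 65.4, 45.1 and 51.2 CPM in wt and 97.5, 90.0 and 92.8 CPM in KO libraries (log2 fold change 0.79, SE 0.14, edgeR adjusted p = 0.016). Without wt replicate 2 the log2 fold changes were 0.64 for *Gadd45g*, -0.74 for *Apobec1* and 0.68 for *Mtrr*, and all 3 passed the test.

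No gene passed in the remaining roles, which comprised 7 tested homologs of the methyltransferases and partners of maintenance, 10 base excision genes and 9 readers of methylated CpG. The most abundant of each were *Usp7*, which encodes a deubiquitinase that binds Dnmt1 and Uhrf1, with log2 fold change 0.14 (SE 0.10, edgeR adjusted p = 0.36), *Parp1*, which encodes a poly(ADP-ribose) polymerase, with 0.12 (adjusted p = 0.51), and *Trim28*, which encodes a corepressor, with 0.13 (adjusted p = 0.31). The calls of the 5 genes that passed were lost without wt replicate 3 or any 1 KO library, as for the members.

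Germline genes are classical targets of promoter methylation in somatic cells and are expressed there when it is lost. Of 18 such genes, 6 had 0 reads in all 6 libraries, which allows at most 0.0540 CPM in each, and 4 were abundant enough to be tested. None of these 4 rose. *Tdrd1*, which encodes a Tudor domain protein of the piRNA pathway, fell from 0.792, 1.15 and 0.785 CPM in wt to 0.435, 0.367 and 0.281 CPM in KO libraries (log2 fold change -1.33, SE 0.35, edgeR adjusted p = 0.041), and -1.12 without wt replicate 2 (adjusted p = 0.077). *Ddx4*, which encodes a germ cell RNA helicase, had 2.90, 2.35 and 2.94 CPM in wt and 1.55, 2.17 and 2.18 CPM in KO libraries (adjusted p = 0.19). *Dazl* stayed between 0.233 and 0.450 CPM and *Tex11* between 0.124 and 0.415 CPM in the 6 libraries, with adjusted p of 0.79 and 0.86. *Sycp3*, at most 0.206 CPM, overlapped between the groups and was not tested. In 2 genes too low to be tested every KO library was above every wt library. The share of all genes that did so was not counted, so no change is read from this. *Dpep3* had 0, 0.05003 and 0 CPM in wt and 0.124, 0.0612 and 0.228 CPM in KO libraries. Its value in wt replicate 2 is that of 3 reads, and in KO replicate 2, its lowest KO library, 3 reads correspond to 0.0459 CPM. *Stk31*, named after its values were seen, had 0, 0.0167 and 0 CPM in wt and 0.0466, 0.0306 and 0.0536 CPM in KO libraries, close to the value of 3 reads. In KO replicate 2 it was below that value.

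Genes whose levels followed those of the members over the 6 libraries were ranked by Pearson's r of log2(CPM + 0.1) among 11619 genes with a mean of at least 1 CPM, as a description. With so few libraries high values of r are found for every member, and genotype and wt replicate 2 set much of the variation. The closest to *Dnmt3a* were *Tgfbr1*, a receptor of TGF-β, and *Runx1*, a transcription factor of blood stem cells (both r = 0.998). *Tet1* was followed most closely by *Adnp2* and *Ptpra* (both r = 0.999), and *Tet2* by *Slc44a2* (r = 1.00) and *Akna* (r = 0.999). For *Dnmt3b* they were *Cisd3* (r = 0.995) and *Epop* (r = 0.991), for *Dnmt1* *Nectin2* (r = 0.991) and *Maz* (r = 0.984), for *Tet3* *Pex5* (r = 0.995) and *Ankrd27* (r = 0.993), and for *Uhrf1* *Taf11* (r = 0.990) and *Igf2bp1* (r = 0.987). Among the members themselves, *Dnmt3a*, *Tet1* and *Tet2* were correlated at r = 0.96 to 0.97.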

How the data were processed

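RNA of Lin-cKit+ FL cells was sequenced from stranded libraries. TopHat2 2.0.10 was used by the authors for alignment to GRCm38, HTSeq for counting on Ensembl genes and the DEXSeq script for exon bins, and they deposited raw counts. The annotation release and strand option are not given in the sources used here. Rows without a gene (46.7% to 53.3% of reads) were left out. Groups follow the genotype labels.

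Gene counts were fitted with edgeR 4.0.16 (TMM, default filter, robust quasi-likelihood test, Benjamini-Hochberg adjustment, threshold 0.05). diffSpliceDGE was applied to bins averaging 10 reads or more. Alternatives were DESeq2 1.42.0, limma 3.58.1, other scaling, filters and left-out libraries. The gene and bin tests were run on simulated data with known changes, whose spread between replicates was set lower than in the real data. edgeR recovered 83.3% of 198 genes changed by 2-fold and called 8 of 14303 unchanged ones. diffSpliceDGE recovered 193 of 200 bins changed by 4-fold but also called 272 of 43276 unchanged bins. Bin positions were rebuilt from GENCODE M21 transcripts. All 7 genes gave the deposited number of bins, as did 89.5% of 34700 single-gene units. Named genes were all members, called pathway genes (otherwise the most abundant of a role), germline genes with a mean of at least 0.1 CPM in a group, the 2 genes most like each member, and bins with an unadjusted p under 0.05 or an extreme usage change. *Dnmt1* bins 41 and 42, *Dnmt3a* bin 23, *Dnmt3b* bins 18 and 31, and the cell type markers named singly were added after their values were seen. The members and lists were chosen with earlier results of these data known. KO replicate 1 is not analysed here for bins, and 1 called marker is not reported by name here. *Dnmt3a* overlaps an antisense gene with 0 counted reads, and *Tet2* overlaps one that was not used here.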

Additional observations from a re-analysis of the deposited data

How the results depend on the processing

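With 7 other settings of the test, 3 or 4 of the 7 enzyme genes were called, and leaving out 1 library gave 0 to 4. Without wt replicate 3 or any 1 KO library none of the enzyme, pathway or germline genes was called. The pathway genes called numbered 5 with edgeR, 9 with DESeq2, 16 with limma-voom and 0 to 13 with 1 library left out (13 without wt replicate 1). The calls over all 14396 genes tested rose too, from 2759 with edgeR to 4300 with DESeq2 and 5350 with limma-voom. Without wt replicate 1 they were 4791 of 14766. For germline genes the count of 1 became 0 without a filter on low counts or with a mean of at least 1 CPM, and 0 to 1 with 1 library left out. The log2 fold change of *Dnmt1*, 0.0033, changed sign to -0.0685 with total counts, -0.0104 with a mean of at least 1 CPM and -0.0790 with limma-voom, and lay between -0.0394 and 0.0598 with 1 library left out. No bin of the enzymes was called in any setting. The 6 bins at an unadjusted p under 0.05 became 15 with the DEXSeq model and 2 to 8 with 1 library left out (2 without either KO library, which leaves 1 library in that group). The ratio of long-form to shared *Dnmt3a* reads between genotypes, 1.72, was 1.54 to 1.94 with 1 library left out. The *Dnmt3a* to *Dnmt3b* ratio per kb in wt, 0.471, was 0.324 with the length of all exons and 0.464 to 0.482 with 1 library left out. The added alternatives for ratios and unadjusted bins were chosen after seeing the data. Apart from the lengths and library numbers, which act by construction, the cause was not tested. No paired analysis was possible because the replicate numbers follow the order of the samples and only 1 wt and 1 KO embryo share the first part of their number. *Tet1* had the fewest reads per tested bin of the 7 genes, with a median of 23.6, and the optional *Dnmt3b* exons had 8 to 56 reads per library.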
